A study of Drosophila melanogaster with 23 samples.

Results

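The genes described here encode subunits of the mitochondrial oxidative phosphorylation machinery in Drosophila melanogaster. They were chosen by name: the current RefSeq symbol had to begin with ND-, COX and a digit, ATPsyn or UQCR, to be SdhA, SdhB, SdhC or SdhD, or to be RFeSP, and the gene had to have a probe set on the array assigned to it alone. Of 88 RefSeq genes with such a symbol, 70 met the rule and 18 were not analysed here, 3 of them because their probe sets were also assigned to another gene. The 70 genes, out of 11982 with a probe set of their own, comprised 32 of complex I, 3 of complex II, 7 of complex III, 14 of complex IV and 14 of complex V. Where a gene had more than 1 probe set, the one with the highest mean over all arrays was used.

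Oxidative phosphorylation is the process by which mitochondria make most of the ATP of a neuron. Complex I takes electrons from NADH and complex II takes them from succinate, and both pass them through iron-sulphur clusters to ubiquinone. Complex III moves them from ubiquinol to cytochrome c, complex IV passes them to oxygen, and complex V, the ATP synthase, uses the proton gradient so built to make ATP. The subunits come from nuclear genes, apart from a core set encoded in mitochondrial DNA, which was not analysed here. Firing neurons and photoreceptors are known for a high demand for ATP.

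The study profiled circadian clock neurons and comparison cells on 23 one-colour Affymetrix arrays. From larval brains, cells were collected by hand from Elav-Gal4; UAS-GFP animals, in which a pan-neuronal driver marks neurons (larval Elav, n = 3), from Tim-Gal4; UAS-YFP animals, whose driver follows the clock gene timeless (larval Tim, n = 3), from Pdf-Gal4; UAS-GFP animals, whose driver marks the neurons that make the neuropeptide PDF (larval Pdf, n = 3), and from Tim-Gal4; Pdf-Gal80; UAS-YFP animals, in which the Gal80 repressor silences the driver in PDF cells (larval Tim without Pdf, n = 3). From adult brains came Elav-Gal4; UAS-GFP cells (adult Elav, n = 3) and Pdf-Gal4; UAS-GFP cells divided by size into large (n = 3) and small (n = 2), and a last group was dissected whole eye (adult eye, n = 3), which is a tissue and not a collected cell type. Sources name the reporter of the Tim lines both as GFP and as YFP. All animals were kept in cycles of 12 h light and 12 h dark, about 50 heads were used near zeitgeber time 12, and 0.1 to 0.4 ng of RNA was amplified in T7 rounds. Each Tim or Pdf group thus differs from its Elav control in driver line as well as in cell type. The eye differs from adult Elav cells in being dissected whole tissue. Large and small Pdf neurons share a driver line, as do larval and adult Elav cells. The labels give no batch and no animal age beyond the stage.

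The values are log2 expression values that the authors had normalised by GCRMA, and 5 was taken as the level of detection. Correlations between replicate arrays lay between 0.846 and 0.966. The driver genes followed the labels in the larval cells: Pdf was 14.83 ± 0.43 (SD, n = 3) in larval Pdf cells and 2.92 ± 0.14 (n = 3) in larval Tim cells without Pdf, where tim was 10.20 ± 0.15. In larval Elav cells the median of 8 neuron markers lay between 3.65 and 5.98 by array, against 12.18 to 12.87 in adult Elav cells, and the median of 9 markers of dividing neuroblasts lay between 11.78 and 12.18, against 3.03 to 3.41, so neuron markers were low in the larval control. Hemocyte markers were present in larval Pdf replicates 1 and 2, where Hml exceeded 5, and the median over 7 such markers ranged from 2.58 to 9.56 across the 3 arrays. In the eye, markers of photoreceptors (12.59 to 14.30), fat body (7.89 to 11.47), glia (7.87 to 8.80), hemocytes (6.30 to 7.97) and muscle (6.34 to 7.18) were all present.

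A further technical measure differed between groups. The array carries probe sets for the 3′ end and for the middle of its own control transcripts, and the gap between them widens as transcripts are copied over a shorter stretch from the 3′ end. For GAPDH, the 3′ minus middle gap on the log2 scale was 3.84, 2.92 and 3.96 in the 3 arrays of larval Tim cells without Pdf and 4.12, 3.64 and 3.26 in the 3 eye arrays. In the other 6 groups it lay between 0.88 and 2.39, so those 2 groups did not overlap with any other. For eIF-4a the mean gap was 4.16 in the eye, 3.28 in larval Tim cells without Pdf and 2.04 to 2.91 in the other groups. Single arrays overlapped for eIF-4a, unlike for GAPDH. Larval Pdf replicate 2, at 3.57, was above every array of larval Tim cells without Pdf and above eye replicate 3 (3.48). Small Pdf replicate 2, at 3.28, was above the lowest array of larval Tim cells without Pdf (3.09).

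Most of the classical subunits were readily measured and their paralogs mostly were not. Of the 70 genes, 49 were above 5 on all 23 arrays, and none of these was one of the 18 genes named as like another subunit (paralogs). Of the paralogs 13 were above 5 on no array, namely ND-20L, ND-24L, ND-51L1, ND-51L2, ND-B14.5AL, COX4L, COX5BL, COX6AL, COX6AL2, COX6CL, COX7AL, ATPsynbetaL and ATPsynGL, and so was ND-B8, a complex I accessory subunit. The highest value of any of these 14 genes was 4.82, for ATPsynbetaL on larval Elav replicate 2. A further 2 paralogs passed 5 on 1 array each: UQCR-14L reached 5.48 in adult Elav replicate 3 and ATPsynCF6L reached 6.09 in larval Tim without Pdf replicate 2. The other 5 genes were above 5 on some arrays: COX7AL2 on 6, UQCR-11L on 7, ATPsynepsilonL on 9, ND-B12 on 3 and UQCR-11 on 21. A gene was tested if it exceeded 5 on at least 2 of the 23 arrays, which kept 54 of the 70 genes and 7670 of all 11982. The 54 comprised 26 of complex I, 3 of complex II, 6 of complex III, 8 of complex IV and 11 of complex V.

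Among the 54 subunits tested, the adult and larval Elav controls were the high end and small Pdf neurons the low end. The group mean was highest in adult Elav cells for 26 subunits and in larval Elav cells for 14, and it was lowest in small Pdf neurons for 25, in the eye for 10 and in larval Tim cells without Pdf for 9. The median over the 54 in each array averaged 12.02 ± 0.23 (SD, n = 3) in adult Elav, 11.30 ± 0.45 in large Pdf, 10.82 ± 0.34 (n = 2) in small Pdf and 11.05 ± 0.19 in eye arrays. In the larva it averaged 11.76 ± 0.13 in Elav, 11.69 ± 0.17 in Tim, 11.19 ± 0.09 in Pdf and 11.09 ± 0.42 in Tim cells without Pdf. The same median over all 7670 genes averaged 7.11 in the eye and in larval Tim cells without Pdf and 7.39 to 7.74 in the other groups. In those 2 groups the genes tested were thus lower as a whole too. Over all probe sets the medians of single arrays lay between 2.90 and 3.31.

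**Figure D1:**
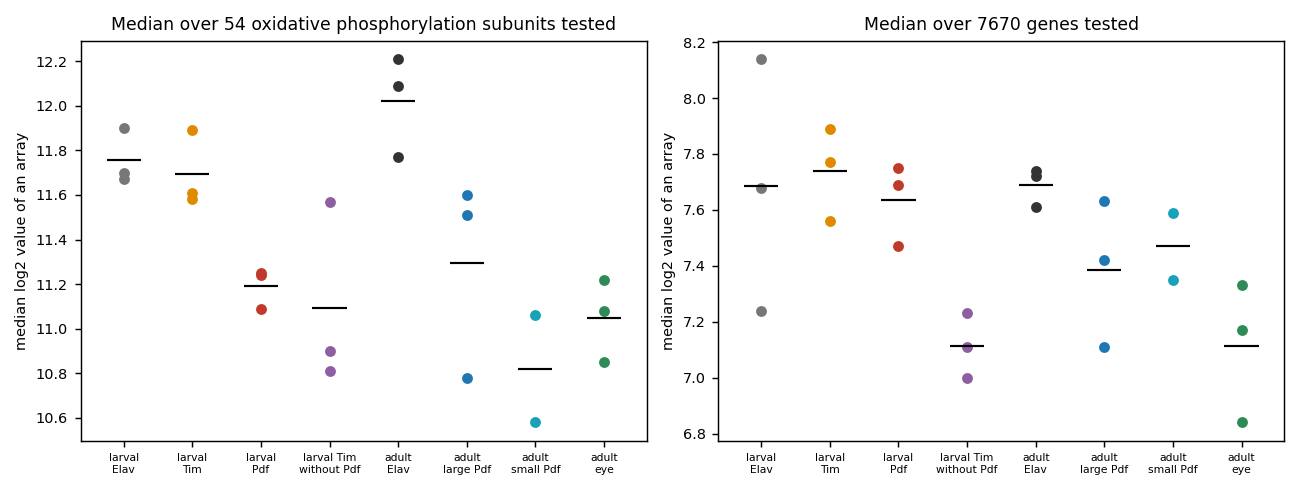
Median log2 value of each array (points) and mean of each group (bars) over the 54 oxidative phosphorylation subunits tested (left) and over all 7670 genes tested (right). The small Pdf arrays (10.58 and 11.06) lie below the adult Elav arrays (11.77 to 12.21) on the left, and the eye and larval Tim without Pdf arrays are low on the right as well.

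**Figure D2:**
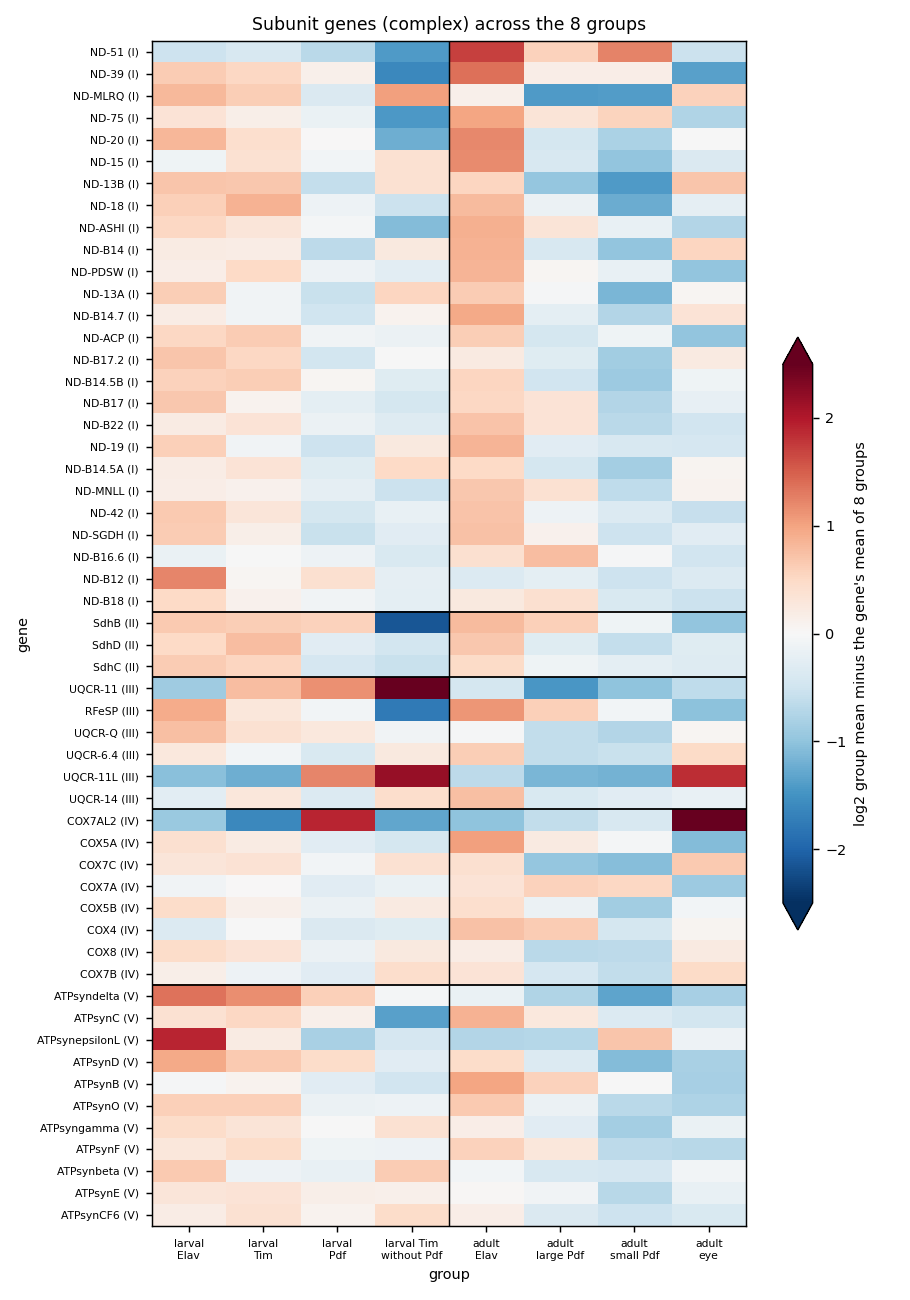
Group mean of each of the 54 subunits tested, as the log2 difference from the mean of its 8 group means, with genes ordered by complex and then by range. Adult Elav is the highest group for 26 rows and small Pdf the lowest for 25, and colours are capped at 2.5 in either direction.

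All groups were fitted in 1 limma model with Benjamini-Hochberg adjustment over the 7670 genes, and a gene was called where the adjusted p was under 0.05 and the change at least 2-fold. Each p-value sets a difference against a spread between biological replicates that was estimated from all 8 groups together. In bulk samples, fewer cells of a type and less RNA per cell cannot be told apart.

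Larval Tim cells without Pdf, the larval clock cells that do not make PDF, were set against larval Elav cells, and SdhB and RFeSP showed the largest falls. SdhB, the iron-sulphur subunit of complex II, was 8.96, 8.93 and 9.35 in the 3 arrays without Pdf and 11.80, 12.00 and 11.81 in the 3 Elav arrays. Every array without Pdf was more than 2 log2 units below every Elav array, and the larval Tim arrays (11.60 to 11.95) and larval Pdf arrays (11.62 to 12.03) lay with Elav. The difference was -2.79 ± 0.34 (SE; 6.91-fold lower, adjusted p = 5.04e-06, limma). RFeSP, the Rieske iron-sulphur protein of complex III, was 8.79, 8.35 and 8.20 without Pdf and 11.02, 11.35 and 11.09 in Elav cells. Those groups did not overlap either, and RFeSP was 6.50-fold lower (-2.70 ± 0.38, adjusted p = 2.31e-05, limma).

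Complex I supplied 6 of the 13 subunits that fell in larval Tim cells without Pdf, and 26 of the 54 tested. ND-39, an accessory subunit next to the ubiquinone site, was 9.36, 8.58 and 8.92 without Pdf and 10.31, 11.46 and 11.83 in Elav cells, with no overlap and a 4.75-fold fall (adjusted p = 0.0013, limma). ND-20, which carries the last iron-sulphur cluster before ubiquinone, fell 4.10-fold (adjusted p = 0.00352). ND-75, the largest core subunit and a carrier of iron-sulphur clusters, was 8.63, 8.97 and 8.57 against 10.15, 10.92 and 10.44, and fell 3.44-fold (adjusted p = 0.000988). These 3 genes lay below Elav on every array. ND-ASHI, a membrane-arm accessory subunit, fell 3.04-fold (adjusted p = 0.00115) and ND-B17 fell 2.17-fold (adjusted p = 0.0161). ND-B12 was also called lower, by 2.05-fold with values under 5 raised to 5 in both groups. No array without Pdf was above 5 and 1 Elav array was also under it, so that fold is no lower bound. Of the 3 arrays on which ND-B12 exceeded 5, 2 were larval Elav, so it was tested only through the group where it was high. Its call was lost in 8 of 18 alternatives, among them no filter and only the groups compared.

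Of complex V, 4 of 11 subunits tested fell in that comparison. ATPsynC, which forms the rotating ring of the membrane sector, was 12.25, 12.56 and 11.16 without Pdf and between 12.90 and 14.31 in the 3 Elav arrays, and fell 3.36-fold (adjusted p = 0.00289, limma). ATPsyndelta, part of the central stalk, fell 2.63-fold (adjusted p = 0.00401) and ATPsynD of the peripheral stalk fell 2.32-fold (adjusted p = 0.0147). ATPsynepsilonL, a paralog of the central stalk subunit sun, was at least 4.09-fold lower, with 1 of 3 arrays without Pdf above 5. SdhC, a membrane anchor of complex II, fell 2.29-fold (adjusted p = 0.012), and the other anchor, SdhD, differed by -0.95 ± 0.46 (adjusted p = 0.107). No subunit of complex IV was called among 8 tested.

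Both subunits that rose in larval Tim cells without Pdf belong to complex III. UQCR-11, an accessory subunit, was 10.96, 10.66 and 10.19 without Pdf and 8.68, 6.68 and 6.18 in Elav cells, 10.8-fold higher (3.43 ± 1.21, adjusted p = 0.03, limma). The groups did not overlap, but UQCR-11 had a mean spread within groups of 1.81 (SD), the widest of the 70 genes, and the call was lost without larval Elav replicate 2 or 3 or without replicate 1 or 2 of the cells without Pdf. UQCR-11L, its paralog, was 6.82, 6.50 and 5.11 without Pdf and 2.60 to 3.09 in Elav cells, at least 2.21-fold higher (adjusted p = 0.00637), with no Elav array above 5, and the call was lost when values under 5 were raised to 5 (adjusted p = 0.144, limma). Whether each probe set reads only its own member of this pair was not tested.

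In all, 13 of the 54 subunits were lower and 2 higher in larval Tim cells without Pdf, where 25.4% of all genes tested were lower and 14.7% higher, so the share of subunits called lower was near that of all genes. The median over all 70 genes was -0.27, but +0.30 when each array was centred on the median of the genes tested, so its direction depends on the scaling. The 70 include the 16 genes not tested, which centring shifts too. Over the genes tested the median was -0.49 for the subunits and -0.23 for all 7670. The calls of SdhB, RFeSP, ND-20, ND-39, ND-75 and ND-ASHI held under that centring and under the other alternatives tried, each left-out array included, while those of ATPsynD, ATPsyndelta, ATPsynepsilonL, ND-B12, ND-B17 and SdhC were lost after centring.

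The wide gap of the control transcripts in these cells stands beside those falls, and its part in them was not tested. Cell type markers moved with them too: all 9 dividing-neuroblast markers were lower than in larval Elav cells (median -7.00) and 5 of 8 neuron markers were higher (median 3.09). Of the others tested, 3 of 11 muscle and 1 of 7 glia markers were higher and 1 of 7 photoreceptor markers was lower. The part of these markers was not tested. Within genes that have a second probe set above 5 on most arrays, several pairs of probe sets disagreed in this group. ATPsynbeta, the catalytic subunit of complex V, differed by -0.03 from Elav with the probe set used and by -3.52 with the other, and ATPsyngamma of the central stalk by -0.07 and -1.28. ND-B17 differed by -1.12 and -2.48, and ND-ACP, the mitochondrial acyl carrier protein, by -0.68, -0.78 and -1.51 with its 3 probe sets. COX7B of complex IV differed by 0.30 and -0.11. Probe sets of ATPsynbeta also disagreed in other groups. They differed from Elav by -0.79 and -2.40 in larval Tim, by -0.84 and -1.97 in larval Pdf and by -0.32 and -1.86 in large Pdf cells. Those of ND-B17 differed by -0.93 and -1.55 in larval Pdf cells. SdhB, ND-39, ND-75 and ND-20 had 1 probe set each, and the second probe set of RFeSP was above 5 on no array.

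**Figure D3:**
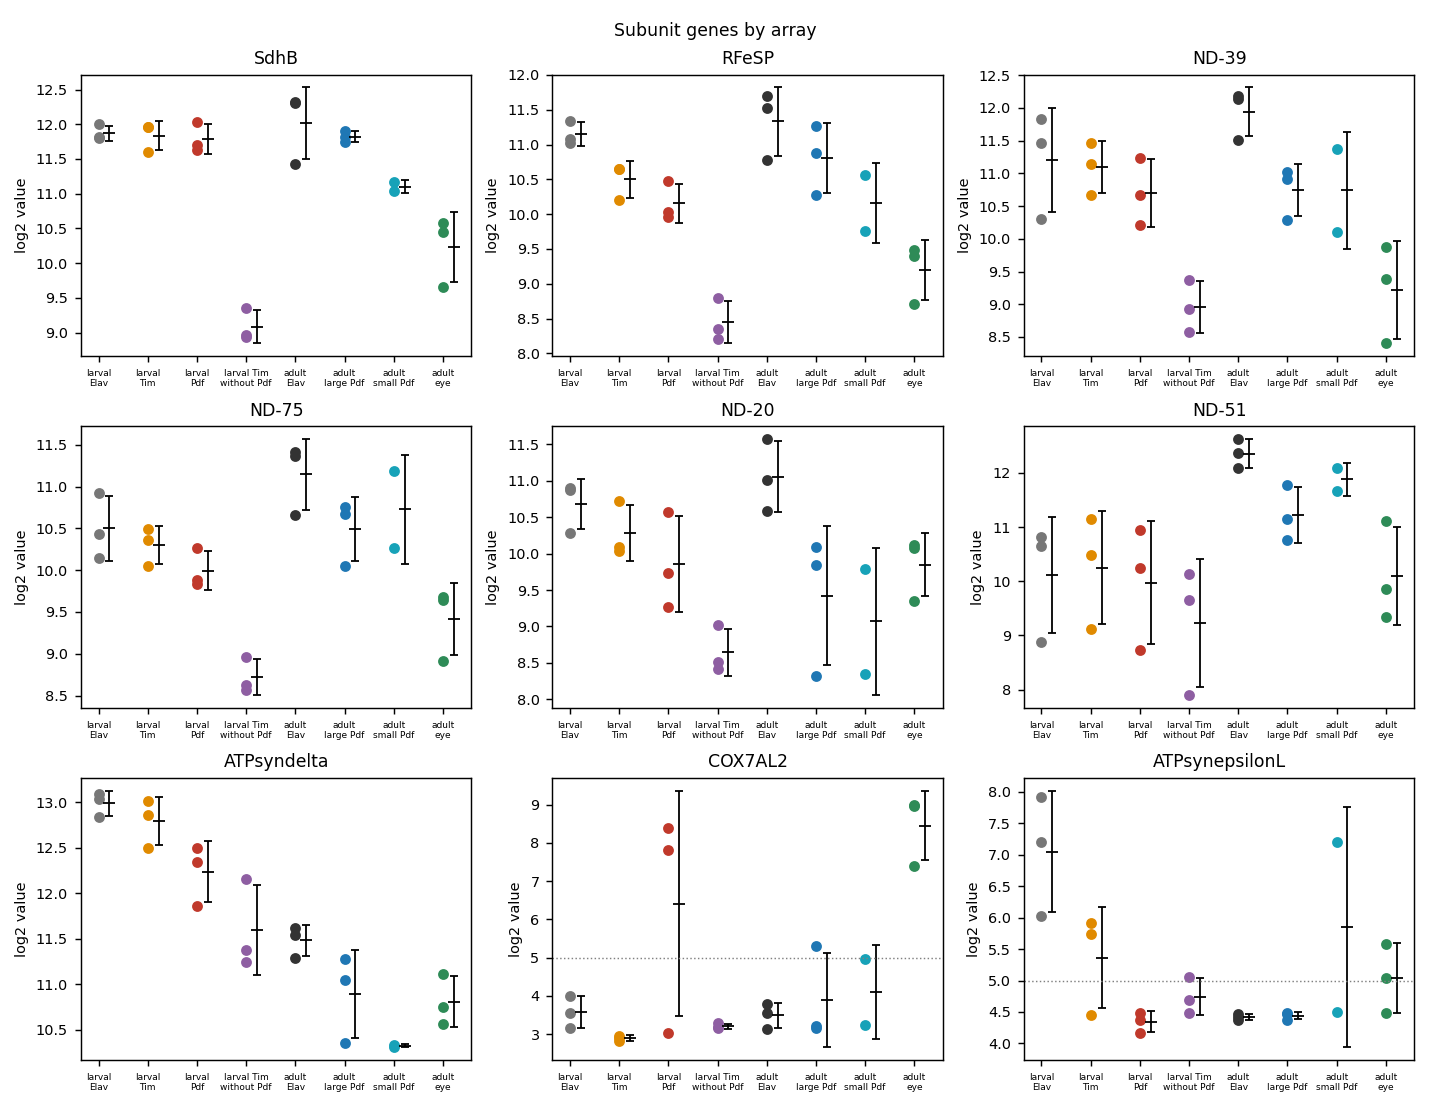
Log2 value on each array (points) with group mean and SD (bars) for 9 subunit genes in the 8 groups, where a dotted line at 5 marks the detection level. SdhB, RFeSP, ND-39, ND-75 and ND-20 have their lowest group mean in larval Tim cells without Pdf, and COX7AL2 is above 5 on all 3 eye arrays and on 3 Pdf arrays.

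Larval Pdf neurons compared directly with the larval Tim cells without Pdf separate the PDF-making from the other clock cells, and 7 subunits were higher and 1 lower in the Pdf cells. Over all genes 15.1% were higher and 7.56% lower. For GAPDH the control gap was 2.92 to 3.96 in the cells without Pdf and 0.89 to 2.26 in the Pdf cells. For eIF-4a the gap was 1.11 to 3.57 in the Pdf cells, which overlapped with the cells without Pdf. The part of these gaps was not tested. SdhB was 12.03, 11.71 and 11.62 in the Pdf cells, 6.52-fold higher (2.71 ± 0.34, adjusted p = 2.15e-05, limma), and no array overlapped. RFeSP (3.26-fold, adjusted p = 0.00364), ND-39 (3.36-fold, adjusted p = 0.0152), ND-75 (2.42-fold, adjusted p = 0.0203), ATPsynC (2.79-fold, adjusted p = 0.0165) and ND-ASHI (2.04-fold, adjusted p = 0.0375) were also higher. COX7AL2 was called higher, by 4.20-fold with values under 5 raised to 5 in both groups, but the groups overlapped. Pdf replicate 1 was at 3.03 and the arrays without Pdf at 3.15 to 3.29, so that fold is no lower bound. The call was lost without Pdf replicate 2 or 3. ND-13A, an accessory subunit of the electron-entry module, was 2.15-fold lower (adjusted p = 0.0291). Of the markers, 7 of 9 for dividing neuroblasts (median 4.12), 3 of 8 for neurons, 3 of 7 for hemocytes and 2 of 7 for glia were higher in the Pdf cells. Lower were 3 of 11 muscle markers, 1 neuron and 1 glia marker, and the part of all these markers was not tested. Without the 2 Pdf arrays that carried hemocyte markers, 4 subunits were called, from the 1 Pdf array left, which is assumed to vary like the other groups, and leaving out larval Tim without Pdf replicate 3 left 3, while SdhB and RFeSP were called without any single array. Over all 70 genes the median was -0.02, and -0.54 after centring. Without centring, the median over the genes tested was 0.02 for the subunits and 0.26 for all 7670. Centring lost the higher calls of ATPsynC, COX7AL2, ND-75 and ND-ASHI.

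Larval Pdf neurons against larval Elav cells gave 3 lower subunits and 1 higher, against 12.8% and 13.3% of all genes. ND-13A was 9.24, 10.02 and 10.38 in Pdf cells and 11.10, 11.24 and 10.83 in Elav cells, 2.26-fold lower (adjusted p = 0.0178, limma). SdhC was 10.60, 10.92 and 10.32 against 11.57, 11.80 and 11.63, and was 2.08-fold lower (adjusted p = 0.035). Neither gene overlapped between the groups, but neither call held without larval Elav replicate 2 or larval Pdf replicate 1. ATPsynepsilonL was 4.38, 4.49 and 4.16 in Pdf cells and 7.93, 7.21 and 6.02 in Elav cells, at least 4.15-fold lower (adjusted p = 0.0019), with no Pdf array above 5. COX7AL2 was called higher (adjusted p = 0.0343), by 4.20-fold with values under 5 raised to 5 in both groups. Pdf replicate 1, at 3.03, lay with the Elav arrays and only replicates 2 and 3, at 7.82 and 8.39, were above 5. That fold is therefore no lower bound. The hemocyte marker Hml was above 5 on replicates 1 and 2 and not on 3. In these cells 7 of 8 neuron, 5 of 7 glia and 4 of 7 hemocyte markers were higher and 6 of 9 neuroblast markers lower than in larval Elav cells, and the part of these markers was not tested. Most subunits leaned low without being called: 49 of 54 differences were negative, where 55.9% of all genes were, and the median over all 70 was -0.45. Leaving out larval Elav replicate 2 left 1 call.

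Cells marked by Tim-Gal4 alone, PDF neurons among them, stood close to larval Elav cells. ATPsynepsilonL was called, at 4.45, 5.74 and 5.91 against the Elav values above, at least 2.83-fold lower (adjusted p = 0.0411, limma) with 2 of 3 Tim arrays above 5. That 1 call of 54 compares with 9.63% of all genes lower and 13.8% higher, and it was lost without any one of 4 arrays (larval Elav replicates 1 and 2, larval Tim replicates 1 and 2). SdhB was 11.60 to 11.95 against 11.80 to 12.00 in Elav cells, and 7 subunits lay below Elav on every Tim array, where 22.2% of all genes did. The median over all 70 genes was -0.08. Glial markers were higher in the larval Tim arrays (7.16 to 8.46) than in larval Elav arrays (2.67 to 3.04). Of the other markers, 7 of 8 for neurons and 1 of 11 for muscle were higher and 8 of 9 for neuroblasts lower. The part of these markers in the values was not tested.

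Adult small Pdf neurons, the PDF cells known for sustaining rhythms in darkness, were set against adult Elav cells. There 9 subunits were lower and none higher. Complex I supplied 7 of these 9, and 26 of the 54 tested. ND-15, an accessory subunit of complex I, was 9.80 and 9.86 in small Pdf neurons and 12.23, 11.98 and 11.80 in Elav cells, 4.50-fold lower (-2.17 ± 0.52, adjusted p = 0.0107, limma). ND-18, another accessory subunit of the electron-entry module, was 9.64 and 8.83 against 11.34, 11.53 and 10.93, and was 4.08-fold lower (adjusted p = 0.0157). ND-B14, an accessory subunit of the matrix arm, was 10.61 and 10.40 against 12.48, 12.46 and 12.08, and was 3.58-fold lower (adjusted p = 0.00492). None of these arrays overlapped, and the call of ND-B14 held without any single array. ND-20 (3.97-fold), ND-13A (3.40-fold), ND-B14.7 (3.18-fold) and ND-B22 (2.64-fold) were also lower, with adjusted p between 0.00638 and 0.0444. Outside complex I, ATPsynD was 2.89-fold lower (adjusted p = 0.0265) and COX4, a nuclear regulatory subunit of complex IV, was 12.85 and 12.19 against 13.74, 13.90 and 13.45, 2.26-fold lower (adjusted p = 0.0456).

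Over all genes, 5.18% were lower and 3.57% higher in small Pdf neurons. Of the 54 subunits 45 lay below Elav on both arrays, where 20.9% of all genes did, and 51 of 54 differences were negative, where 52.8% of all genes were. Over all 70 genes the median was -0.98, and it kept its sign after centring, which left 4 calls in place of 9 (ND-13A, ND-15, ND-20 and ND-B14). With only 2 small Pdf arrays the count depends on each: leaving out replicate 2 left 4 calls, where the lone array is assumed to vary like the other groups. ATPsynepsilonL was 4.50 on 1 small Pdf array and 7.20 on the other, and UQCR-11 was 4.61 and 9.54. These 2 genes had no usable level for the group. SdhB was 11.17 and 11.03, below the 3 Elav arrays (11.42 to 12.32), but was not called.

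Large Pdf neurons, the PDF cells known for promoting arousal by light, showed 3 lower subunits against adult Elav cells and none higher. All 3 were of complex I, which had 26 of the 54 subunits tested. ND-15 was 10.82, 10.16 and 10.24 and was 3.02-fold lower (adjusted p = 0.0348, limma). ND-20 was 10.09, 8.33 and 9.85 against 11.57, 11.02 and 10.59 in Elav cells, 3.11-fold lower (adjusted p = 0.0488). ND-B14 was 11.37, 10.77 and 11.10, 2.39-fold lower (adjusted p = 0.0288). All 3 lay below Elav on every array, and all 3 were also called in small Pdf neurons, a comparison that shares the Elav arrays. Over all genes 5.66% were lower and 3.40% higher, so 3 of 54 was at the background. However, 24 subunits lay below Elav on every large Pdf array, where 13.6% of all genes did, and 48 of 54 differences were negative, where 53.7% of all genes were. The median over all 70 genes was -0.55. After centring 1 call was left, that of ND-15, and a replicate block lost the calls of ND-15 and ND-20 and left that of ND-B14, though the numbers did not pair the samples. No call survived without large Pdf replicate 2, on which ND-13B was 6.75 and COX7C 10.20, both the lowest of the large Pdf arrays, and 7 were called without replicate 1. The calls of ND-15, ND-20 and ND-B14 were also each lost without large Pdf replicate 3, Elav replicate 1 or Elav replicate 2.

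No subunit was called between large and small Pdf neurons by limma, and 9 of 54 reached an unadjusted p under 0.05. Over all genes 1.71% were called higher and 1.92% lower. All large Pdf arrays were above both small Pdf arrays for 20 subunits and below them for 1, where 15.5% and 15.4% of all genes were so arranged, and 44 of 54 differences were positive. Over all 70 genes the median was 0.27, with a range of 0.09 to 0.45 when single arrays were left out. Complex I had 11 of those 20 subunits and complex V had 7, where they had 26 and 11 of the 54 tested.

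**Figure D4:**
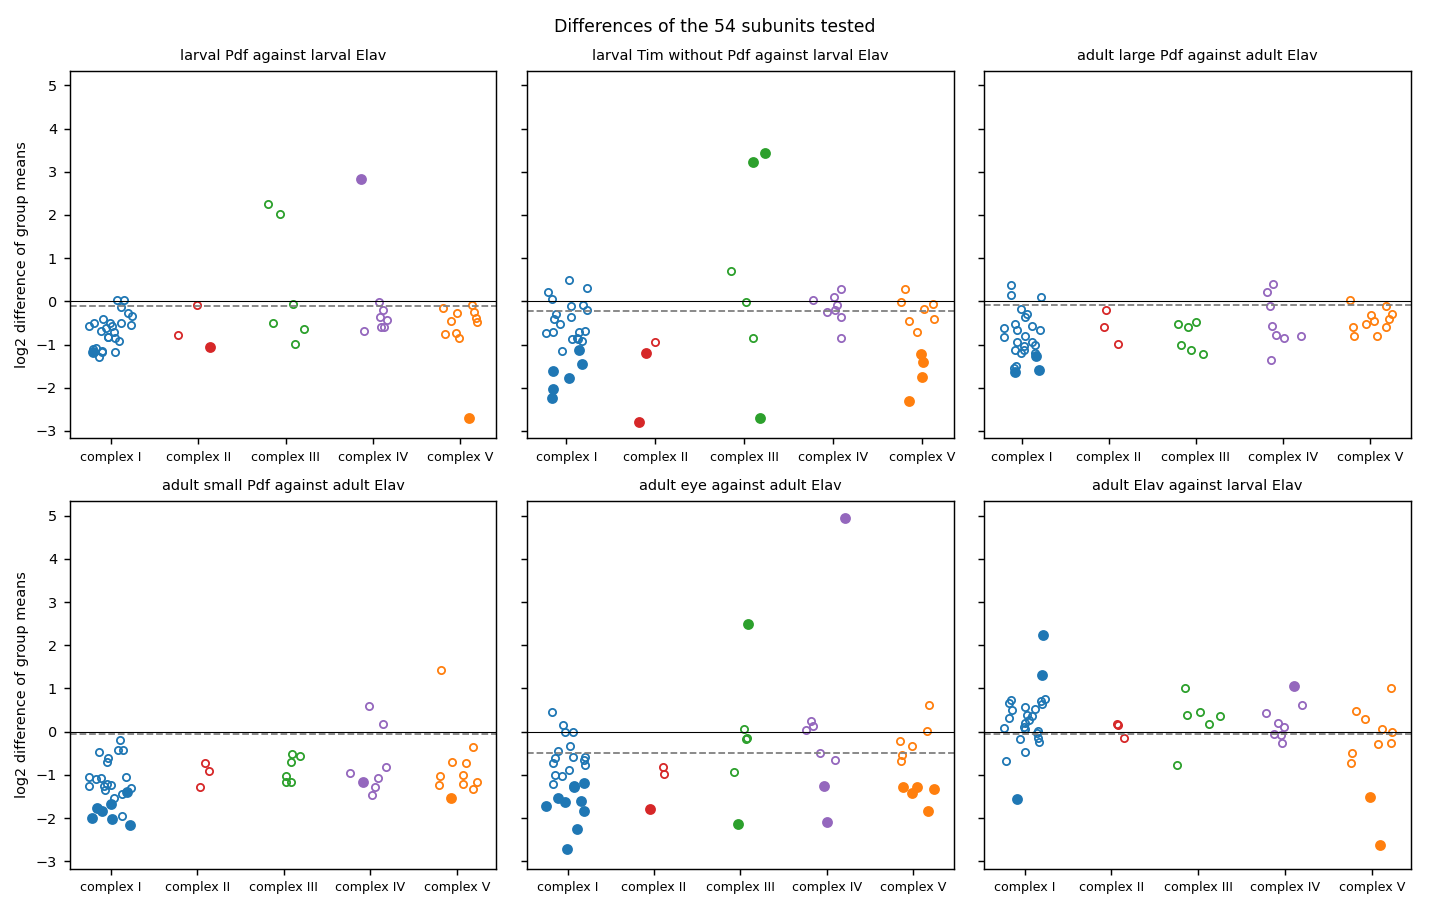
Log2 difference of group means for each of the 54 subunits tested, by complex, in 6 comparisons. Filled points were called, open points were not, and the dashed line is the median over all 7670 genes tested. In both adult Pdf panels nearly all points lie under the dashed line. In all the other panels called points reach both below -2 and above 2.

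The eye, a whole tissue dominated by photoreceptors, had 19 lower and 2 higher subunits against adult Elav cells. ND-39 was 9.38, 8.40 and 9.87 in the eye and 12.13, 12.18 and 11.51 in Elav cells, 6.61-fold lower (-2.73 ± 0.49, adjusted p = 0.000215, limma). RFeSP was 9.49, 8.71 and 9.41 against 11.53, 11.69 and 10.77, 4.38-fold lower (adjusted p = 0.000216). COX5A, a nuclear subunit of complex IV, was 11.50, 11.19 and 11.77 against 13.66, 13.73 and 13.37, 4.29-fold lower (adjusted p = 0.000218). In all 3 genes every eye array was below every Elav array. SdhB was 10.58, 9.65 and 10.45 and was 3.46-fold lower (adjusted p = 0.000394).

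Of complex I, 10 of 26 subunits tested fell in the eye. ND-51, which binds NADH and the flavin and so begins electron transfer, was 9.85, 9.34 and 11.11 against 12.62, 12.36 and 12.09, 4.78-fold lower (adjusted p = 0.0157, limma), a call lost without eye replicate 2 or Elav replicate 1. ND-PDSW (3.58-fold), ND-75 (3.32-fold), ND-ASHI (3.09-fold), ND-ACP (3.03-fold), ND-15 (2.92-fold), ND-42 (2.44-fold), ND-19 (2.41-fold) and ND-B22 (2.30-fold) were lower as well. Complex V fell in 5 subunits, 4 of which belong to the stalks or the ring: ATPsynB (3.55-fold), ATPsynO (2.69-fold) and ATPsynD (2.41-fold) of the peripheral stalk, ATPsynC of the ring (2.52-fold) and ATPsynF of the membrane sector (2.42-fold). COX7A of complex IV was 2.38-fold lower. Not every complex IV subunit leaned that way: COX7C (13.28, 13.21 and 12.87) and COX7B (14.30, 14.42 and 13.77) overlapped with the Elav arrays.

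Both subunits that rose in the eye are paralogs. COX7AL2, a paralog of COX7A, was 8.99, 8.96 and 7.40 in the eye and 3.15, 3.79 and 3.55 in Elav cells, at least 10.9-fold higher (adjusted p = 0.000408, limma), with no Elav array above 5. The groups were far apart, and COX7A itself fell. In the other groups it was above 5 on 3 arrays, larval Pdf replicates 2 and 3 and large Pdf replicate 1 (5.31). UQCR-11L was 5.75, 5.54 and 6.12 in the eye and under 5 on all Elav arrays, at least 1.75-fold higher, and that call was lost when values under 5 were raised to 5.

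Across all genes 25.5% were lower and 14.4% higher in the eye, and 36 of the 54 subunits against 36.3% of all genes lay below Elav on every array. The median over all 70 genes was -0.58, but -0.01 when arrays were centred on the genes tested, and 11 subunits were then called in place of 21. The 70 include the 16 genes not tested, which centring shifts too. Without centring, the median over the genes tested was -0.75 for the subunits and -0.50 for all 7670. Centring removed the calls of ATPsynB, ATPsynC, ATPsynD, ATPsynF, ATPsynO, COX7A, ND-15, ND-19, ND-42 and ND-B22. Leaving out eye replicate 2 also left 11 calls. Those of COX5A, COX7AL2, ND-39, ND-75, ND-ACP, ND-ASHI, ND-PDSW, RFeSP and SdhB held under all alternatives tried. The markers of fat body, glia, hemocytes and muscle given above, and the wide control gap of the eye arrays, stand beside these values and their part was not tested. The second probe sets of ATPsynbeta (-2.69, against 0.01 for the one used), ATPsyngamma (-1.60, against -0.34) and ND-B17 (-1.70, against -0.72) were again lower than the first.

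The falls in larval Tim cells without Pdf and in the eye were compared, as 1 of several pairs of comparisons that share no array. Called lower in both were 7 subunits: SdhB, RFeSP, ND-39, ND-75, ND-ASHI, ATPsynC and ATPsynD. They made up 53.8% of the 13 lower in the larval cells and 36.8% of the 19 lower in the eye, against 32.2% and 32.1% of the lists of all genes. Across the 54 subunits the differences had r = 0.43, and across all 7670 genes r = 0.19, given as a description since genes are not independent. Such likeness was not particular to this pair. Over all pairs that share no array, r across the subunits ranged from -0.67 to 0.46. The lowest was the eye against adult Elav with large against larval Pdf neurons. The highest was larval Pdf against larval Elav with the eye against adult Elav, where r across all genes was -0.01. The 2 groups also share the wide 3′ gap of the control transcripts. ND-20, called in the larval cells, was not called in the eye (-1.21 ± 0.51, adjusted p = 0.0635, limma), and ND-51, called in the eye, was not called in the larval cells.

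**Figure D5:**
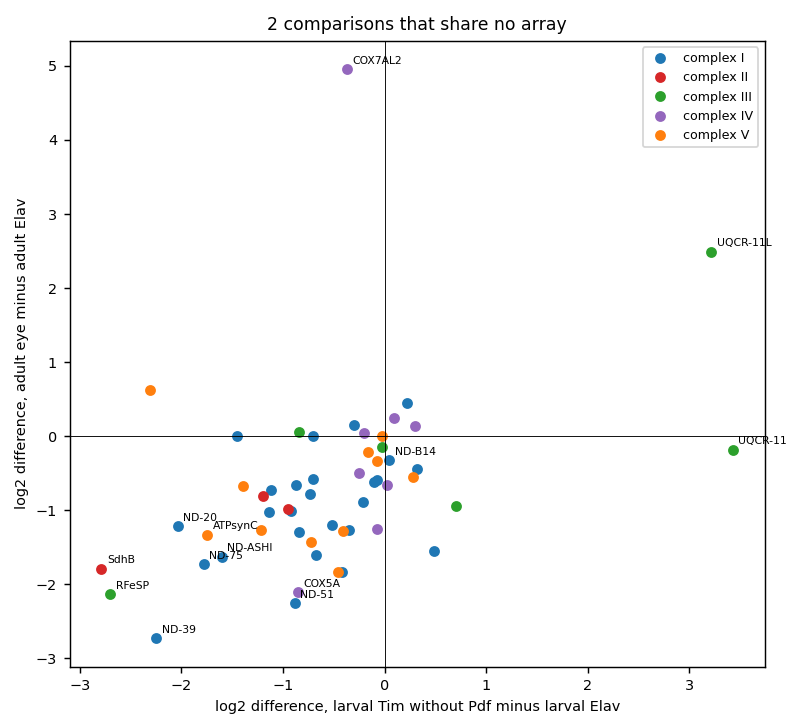
Log2 difference of each of the 54 subunits in larval Tim cells without Pdf against larval Elav (horizontal) and in the eye against adult Elav (vertical), coloured by complex. SdhB, RFeSP, ND-39 and ND-75 lie at -1.73 or lower on both axes, UQCR-11L is high on both and COX7AL2 is high in the eye alone.

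Between the stages, adult Elav cells had 3 higher and 3 lower subunits than larval Elav cells, against 20.3% and 23.4% of all genes. ATPsyndelta was 11.62, 11.54 and 11.29 in the adult and 13.04, 13.09 and 12.84 in the larva, 2.84-fold lower (-1.51 ± 0.35, adjusted p = 0.00177, limma). The groups were apart and the call held under all alternatives tried. ND-51 was 4.73-fold higher in the adult (adjusted p = 0.0141), a call lost without larval Elav replicate 1, which at 8.88 was the lowest of the larval Elav arrays. ND-15 (2.46-fold) and COX4 (2.10-fold) were higher too and were also lost without that array. ATPsynepsilonL was at least 4.15-fold lower in the adult (adjusted p = 0.00102), with no adult Elav array above 5. ND-B12 was called lower, by 2.05-fold with values under 5 raised to 5, which is no lower bound since larval Elav replicate 3 was at 4.11. It had passed the filter only through larval Elav. That call was lost after centring, with only the groups compared and without replicate 1 or 2 of either group. Neuroblast markers, high in the larval control as given above, moved with the stage, and their part was not tested.

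The Pdf neurons of the 2 stages differed in few subunits, and ATPsyndelta led again. It was 12.50, 12.35 and 11.86 in larval Pdf cells, 11.05, 10.36 and 11.28 in large Pdf and 10.32 and 10.34 in small Pdf neurons. All adult arrays lay below all larval ones, by 2.54-fold for large (adjusted p = 0.00851, limma) and 3.76-fold for small neurons (adjusted p = 0.00336). ATPsyndelta was the 1 subunit called for large Pdf neurons, where 11.3% of all genes were higher and 15.2% lower. For small Pdf neurons ATPsynD was also lower (2.91-fold, adjusted p = 0.0212), where 4.82% and 7.50% of all genes were higher and lower. None of these 3 calls held when the 2 larval Pdf arrays with hemocyte markers were left out, a fit with 1 larval Pdf array that is assumed to vary like the other groups. Of 9 neuroblast markers, 9 were lower in large and 8 in small than in larval Pdf neurons, and 4 of 7 glia and 3 of 7 hemocyte markers were lower in each, and their part was not tested. A test of whether the contrast of Pdf with Elav cells differed between the stages called 1 subunit higher and none lower with large Pdf neurons, where 6.84% and 10.9% of all genes were, and 1 higher (ATPsynepsilonL, as with large Pdf, a gene under 5 on every array of 3 of the 4 groups with large Pdf) and 1 lower (ND-15) with small ones, where 5.71% and 9.61% were.

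Within complexes, subunits varied unevenly across the 8 group means. In complex I the widest ranges were 3.12 for ND-51, 2.99 for ND-39 and 2.44 for ND-MLRQ, an accessory subunit counted in complex I by its symbol, and the narrowest among those above 5 on all arrays were 1.03 for ND-B18 and 1.27 for ND-B16.6. ND-MLRQ was 12.67 ± 0.97 (SD, n = 3) in adult Elav, 11.12 ± 0.98 in large and 11.13 ± 1.23 (n = 2) in small Pdf neurons and was not called. In complex II the range was 2.94 for SdhB, 1.37 for SdhD and 1.19 for SdhC. The iron-sulphur subunit thus moved more than either membrane anchor.

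In complex III the ranges were 3.93 for UQCR-11 and 2.88 for RFeSP, and the narrowest were 1.13 for UQCR-14 and 1.23 for UQCR-6.4. UQCR-11 was uneven within adult groups, at 5.18, 9.19 and 8.52 in Elav and 5.33, 9.70 and 4.81 in large Pdf arrays. In complex IV COX7AL2 (3.45 with values under 5 raised to 5), COX5A (2.10) and COX7C (1.71) varied most and COX7B (1.09) and COX8 (1.12) least. In complex V ATPsyndelta (2.66), ATPsynC (2.22) and ATPsynepsilonL (2.05) varied most, and ATPsynCF6 (0.98), of the peripheral stalk, and ATPsynE (1.04), of the membrane sector, least. The ATPsynbeta range was 1.08 with the probe set used.

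ATPsynepsilonL was the paralog that stood out in larval Elav cells, where it was above 5 on all 3 arrays (mean 7.05 ± 0.96, SD, n = 3). Its mean was 5.37 ± 0.80 in larval Tim and 5.04 ± 0.55 in the eye, with 2 of 3 arrays above 5 in each, and 4.74 ± 0.29 in larval Tim cells without Pdf, with 1 of 3. The small Pdf arrays were apart at 4.50 and 7.20, and it was under 5 on every larval Pdf, large Pdf and adult Elav array. Its presumed parent sun was above 5 on all 23 arrays and was not called in any comparison of groups. Neuroblast markers were high in the larval Elav cells too, a link that was not tested.

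Subunits with other symbols and the proteins that assemble the complexes were followed as separate lists. Of blw, sun, levy, cype, Cyt-c1 and ox, all 6 were tested, and levy, a complex IV subunit, was called lower in the eye (2.25-fold, adjusted p = 0.0219, limma) and none in any other comparison. Of 8 tested assembly factors, 4 were lower in larval Tim cells without Pdf (sicily 5.43-fold, Surf1 at least 4.30-fold, Cox10 3.85-fold and Scox 3.40-fold) and 5 in the eye (Bcs1 4.01-fold, Cox10 3.77-fold, Scox 3.72-fold, sicily 2.68-fold and Cox17 2.38-fold). In these comparisons 25.4% and 25.5% of all genes were lower, and both groups had the wide gap of the control transcripts. In small Pdf neurons Bcs1, which inserts the Rieske protein into complex III, was at least 6.19-fold lower (adjusted p = 0.00372), and Surf1, a complex IV assembly factor, was at least 4.64-fold lower (adjusted p = 0.00507) than in adult Elav cells. Both were also lower in small than in large Pdf neurons (at least 6.22-fold and at least 3.88-fold), where no subunit was called. Of 9 tested electron carriers and exchangers, Bmcp, an uncoupling protein homolog, was lower in larval Pdf against larval Elav cells (4.31-fold). Of all genes 12.8% were lower there. In large Pdf neurons against adult Elav cells Bmcp (3.19-fold) and sesB, the ADP/ATP translocase (2.07-fold), were lower, as were 5.66% of all genes. None was called in small Pdf against adult Elav cells. Ucp4A, another uncoupling protein homolog, was at least 4.57-fold higher in large than in small Pdf neurons, as were 1.71% of all genes by call. In the eye Ucp4A was at least 3.01-fold lower, and wal, the alpha subunit of the electron transfer flavoprotein, was 3.52-fold higher. Of all genes 25.5% were lower and 14.4% higher there. The list had most calls in adult against larval Elav cells, 1 higher and 3 lower, against 20.3% and 23.4% of all genes. In large against larval Pdf neurons 1 was higher and 2 lower, against 11.3% and 15.2%. In larval Pdf against larval Tim cells without Pdf 2 were lower, against 7.56%. Also called were 1 higher in larval Tim without Pdf against larval Elav cells (14.7%) and 1 lower in small against larval Pdf neurons (7.5%).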

How the data were processed

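The deposited values are log2 expression values per probe set, which the authors normalised by GCRMA, per the submitters' processing notes. No version is recorded for that step, and the number of arrays limits the precision. Symbols were updated to RefSeq through the gene identifier. Of 18952 probe sets, 13647 had 1 gene, 402 several and 4720 none, beside 183 control probe sets.

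The 54 subunits tested were those above 5 on at least 2 of 23 arrays. limma 3.58.1 in R 4.3.3 fitted 8 group means (15 residual degrees of freedom) with 11 comparisons of 2 groups and 2 differences of differences, and was tested on simulated data. A fold against a group with an array under 5 was computed with values raised to 5 in both groups. It is a lower bound only where no array of the higher group was under 5. That failed for COX7AL2 in larval Pdf and ND-B12 in larval Elav cells. The members and lists were chosen with earlier results of these data known. Genes were named if they were among the 6 most changed calls in a direction, among the 3 widest or 2 narrowest ranges of a complex, a paralog or of complex II. Alternatives were the filter, the detection level, raised values, quantile normalisation, centring, the mean of probe sets, groups compared alone, array weights, robust variance, a replicate block, no minimum fold and each array left out. Leaving out both larval Pdf arrays with hemocyte markers was chosen after seeing the data. Promoter motifs were not analysed here.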

Additional observations from a re-analysis of the deposited data

Results flagged for a closer look

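The contrast of Pdf neurons with Elav cells differed between the stages for 2 subunits, by a test of the difference itself in limma. For ATPsynepsilonL the adult contrast exceeded the larval one by 2.73 on the log2 scale with large Pdf neurons (adjusted p = 0.0257) and by 4.14 with small Pdf neurons (adjusted p = 0.00283). It was above 5 on all 3 larval Elav arrays and under 5 on all larval Pdf, adult Elav and large Pdf arrays, and the small Pdf arrays were 4.50 and 7.20. With 3 of the 4 groups of the large Pdf test under 5 these fitted values are no sizes, and with values under 5 raised to 5 they were 2.05 (adjusted p = 0.0372, limma) and 3.15 (adjusted p = 0.0044). The difference with small Pdf neurons was 2.79 without the array at 7.20 and 5.50 without the array at 4.50, so its size depends on each. The call with large Pdf neurons was lost without larval Elav replicate 1 or 2 or larval Pdf replicate 3, and without both larval Pdf arrays with hemocyte markers. For ND-15 the adult contrast with small Pdf neurons lay below the larval one by -2.21 (adjusted p = 0.0357), a call lost without any one of 7 arrays, among them each small Pdf array, and with array weights or a replicate block.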

How the results depend on the processing

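Of 73 calls of subunits, 21 held in every alternative tried, and of 1337 recomputed calls 235 were lost and none changed sign. Of 470 recomputed counts and medians (over all 70 genes), 379 stayed within the limits set and 1 reversed. The cause of the others was not tested. Counts below are subunits called. Centring each array on the genes tested turned the median of larval Tim without Pdf against larval Elav to 0.30 and moved those of larval Pdf against larval Tim without Pdf to -0.54, eye to -0.01 and small Pdf against larval Pdf to -0.08; the counts became 0 for larval Tim, 1 for large Pdf and 4 for small Pdf against Elav, 11 for the eye and 4 for large Pdf against larval Pdf. Another quantile normalisation gave an eye median of -0.20 and counts of 2 for larval Tim, large Pdf against larval Pdf and the difference of the large Pdf contrast from the larval one. With no filter the count was 0 for larval Tim, 17 for small Pdf and 1 for large against small Pdf. With values under 5 raised to 5 it was 7 for larval Pdf against larval Elav, 17 for small Pdf, 1 for large against small and 2 for large against larval Pdf. The mean of all probe sets gave 7 for larval Pdf and 2 for larval Tim. Fitting only the groups compared, which leaves fewer samples for the spread, gave 0 for larval Tim, 1 for large Pdf, 3 for small Pdf and 0 for both adult Pdf groups against larval Pdf. Array weights gave 10 for larval Pdf, 2 for larval Tim, 15 for small Pdf, 3 for large against larval Pdf and 1 for the difference of the small Pdf contrast. Variance estimation with trend and robust gave 7 for larval Pdf, 0 for larval Tim, 6 for large Pdf, 19 for small Pdf, 1 for large against small and 2 for large against larval Pdf. With no minimum fold 3 were called for large against larval Pdf. Without both larval Pdf arrays with hemocyte markers, chosen after seeing the data, the count was 4 for larval Pdf against larval Tim without Pdf, 2 for large against larval Pdf, and 2 and 4 for the differences of the large and small Pdf contrasts.

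The replicate numbers did not pair the samples: the deviations of 77 pairs of arrays with the same number had a median r of -0.015 (-0.317 to 0.278), against 0.004 for 154 other pairs. A replicate block gave 1 call for large Pdf and 1 for the difference of the small Pdf contrast, 15 for larval Tim without Pdf, 9 for small Pdf and 20 for the eye, and every other count stayed within 1.5 times.

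Leaving out single arrays gave 1 to 6 calls for larval Pdf against larval Elav, 0 to 2 for larval Tim, 3 to 6 for larval Pdf against larval Tim without Pdf, 0 to 7 for large Pdf, 4 to 10 for small Pdf, 0 to 1 for large against small, 11 to 21 for the eye, 2 to 7 for adult against larval Elav, 1 to 5 and 1 to 4 for large and small against larval Pdf, and 0 to 3 and 1 to 3 for the differences of the large and small contrasts. The median ranged from -0.33 to -0.08 for small against larval Pdf and from -0.55 to -0.25 for the difference of the small contrast. With 1 small Pdf array left, that array is assumed to vary like the other groups.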

Other observations

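Beyond the subunits, genes that supply or regulate mitochondria moved in several groups. Of 9 tested glycolysis genes, 5 were lower in larval Tim cells without Pdf than in larval Elav cells (Pfk 4.24-fold, Gapdh1 3.89-fold, Eno 2.57-fold, Pgk 2.30-fold and Tpi 2.06-fold) and Hex-A, a hexokinase, was 3.68-fold higher, where 25.4% of all genes were lower and 14.7% higher and the control transcripts had a wide gap. In larval Pdf against larval Tim cells without Pdf 6 of the 9 were higher, led by Pfk (5.99-fold, adjusted p = 0.000493, limma) and Pgk (5.50-fold, adjusted p = 0.000696), where 15.1% of all genes were higher. The wide gap of the cells without Pdf lies in this comparison too, and its part was not tested. Of 11 tested genes of pyruvate dehydrogenase and the tricarboxylic acid cycle, 2 were higher (Idh 3.94-fold and Mdh1 3.71-fold) and 4 lower (mAcon1 3.38-fold, Idh3b 3.10-fold, Idh3a 2.99-fold and Idh3g 2.48-fold) in larval Tim cells without Pdf. In the eye Ogdh was 2.53-fold higher, and mAcon1 (4.26-fold) and Idh3a (3.39-fold) were lower.

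Idh3g, the gamma subunit of the NAD-dependent isocitrate dehydrogenase, had a pattern of its own. Its mean was 5.51 ± 0.27 (SD, n = 3) in larval Tim cells and 5.38 ± 0.93 (n = 3) in the eye, and in each of the other 6 groups it was between 10.12 and 11.54. Against larval Elav cells (11.43 ± 0.49, n = 3) it was 60.5-fold lower in larval Tim cells (adjusted p = 1.03e-07, limma), and against adult Elav cells (11.21 ± 0.47, n = 3) it was at least 48.9-fold lower in the eye (adjusted p = 1.17e-08). Larval Tim cells without Pdf, which carry the same driver, were at 10.12 ± 0.46. Idh3a and Idh3b of the same enzyme differed by 1.06-fold and 1.74-fold in larval Tim cells, neither called, and no cause was tested.

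Among 6 tested regulators of mitochondrial genes, 3 were lower and 1 higher in adult than in larval Elav cells. TFAM, which packages mitochondrial DNA, was 6.41-fold lower (adjusted p = 1.15e-05, limma), mtTFB2, a mitochondrial transcription factor, was 6.27-fold lower and PolG1, the mitochondrial DNA polymerase, was at least 2.26-fold lower, while ewg was 7.44-fold higher. Over all genes 23.4% were lower and 20.3% higher. Regulators of this list also moved among the larval groups: against larval Elav cells 4 were lower in Tim cells without Pdf (TFAM 4.03-fold), 3 were lower and 1 higher in Pdf cells (TFAM 2.52-fold lower), and 2 were lower and 1 higher in Tim cells (TFAM 2.14-fold lower). Of all genes 25.4% were lower and 14.7% higher in Tim cells without Pdf, 12.8% and 13.3% in Pdf cells and 9.63% and 13.8% in Tim cells. The Tim cells without Pdf also had the wide control gap, and its part was not tested. Neuroblast markers were lower than in larval Elav cells in all these groups, and their part was not tested.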
